A study of Mus musculus with 6 samples.

Results

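Beside the messengers for hormones and secretory proteins, pancreatic islets hold many transcripts filed as noncoding. The abundant ones are described here. A gene symbol was counted as a member when every transcript row under it carried a RefSeq noncoding accession and its highest row averaged at least 5 RPKM over the 6 libraries. RPKM scales reads by transcript length and library size, so that levels of genes of different length can be set side by side. Symbols of microRNAs and of named small nucleolar, Cajal body, nuclear and ribosomal RNAs, symbols with -ps in the name, H19 and Meg3 were left out. The rule kept 250 of 21813 symbols with values, and 2612 symbols had noncoding rows only. Members were thus chosen by their mean level over all 6 libraries, so levels are given as a description, while the difference between genotypes played no part in the choice.

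The tested animals were 3 male Ucn3 null mice, set against 3 male wild-type littermates, all adults of 3 months, and each library is the islets of 1 animal. Ucn3 encodes urocortin 3, a peptide hormone of the corticotropin-releasing factor family that beta cells release. The labels call the islets a mixed cell population, and the extraction text mentions a sort without naming its gate. How the null allele was made, the strain and any pairing of littermates are likewise not given in the sources used here.

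Long noncoding RNAs act as RNA. Some build nuclear bodies, some silence neighbouring genes in cis, some carry small nucleolar RNAs (snoRNAs) in their introns, and many run antisense to a protein-coding gene. Transcribed pseudogenes are copies of coding genes, and their sequence can be close enough to the parent that short reads suit either place. RefSeq's current records (GRCm38.p6) were matched for 249 of the 250 symbols. They call 179 members long noncoding or antisense RNA, 51 pseudogenes, 12 protein coding and 7 snoRNAs, with Gm17066 unmatched. Newer RefSeq symbols, held by 58 members, are used where they are better known: Firre (6720401G13Rik in the deposited table), Ftx (B230206F22Rik), Norad (2900097C17Rik), Snhg14 (C230091D08Rik), Snhg15 (Gm11974), Snhg20 (2810008D09Rik), Epb41l4aos (2410004N09Rik), Plut (2210019I11Rik), Mtln (1500011K16Rik), Smim4 (2010107H07Rik), Mrln (2310015B20Rik) and Pigbos1 (2310009A05Rik). Pcsk2os2 is 9430032N09Rik, Pcsk2os1 is C630020P19Rik, and DQ267100 to DQ267102 are LOC100861570 to LOC100861572. The label of long noncoding RNA therefore holds for 179 of 250 members, and the other classes are named as such below.

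The genotype was clear in the libraries: Ucn3 stood at 1.61, 1.63 and 1.80 RPKM in null islets, against 136, 157 and 155 RPKM in wild-type islets. Islet hormones were high throughout, with Ins2 at 184445 to 202333 RPKM in null islets and 202206 to 232411 RPKM in wild-type islets. Estimated depth was 46440000 to 51850000 reads in null and 42550000 to 48470000 reads in wild-type libraries. All 19 acinar markers had a higher mean in null islets, and they summed to 4492 to 21508 RPKM in null libraries, against 505 to 5854 RPKM in wild-type libraries. All 3 delta cell markers had a lower mean, with sums of 682 to 1083 RPKM in null and 1746 to 2404 RPKM in wild-type libraries. The 7 ductal markers also had lower means in null islets, with sums of 130 to 181 RPKM in null and 190.2 to 232 RPKM in wild-type libraries. No marker of these lists was at 0 in all libraries. In whole islets, fewer cells of a type and less RNA per cell cannot be told apart.

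Members spanned nearly 3 orders of magnitude. Their median was 12.6 RPKM; 143 reached 10 RPKM, 81 reached 20, 34 reached 50 and 16 reached 100 RPKM. Together they made up 1.98 to 2.20% of the summed RPKM of a null library and 2.04 to 2.20% of a wild-type library. The highest by far was Gm1821, named Ubb-ps by RefSeq, a pseudogene of the polyubiquitin gene Ubb. It stood at 2235, 2291 and 2453 RPKM in null islets, against 2441, 2655 and 2089 RPKM in wild-type islets, and the ranges overlapped. Gm5441, a long noncoding RNA of unassigned role, followed with 518, 575 and 597 RPKM in null islets and 494, 554 and 571 RPKM in wild-type islets. 1700016L04Rik had 494, 358 and 452 RPKM in null islets, against 506, 459.9 and 418 RPKM in wild-type islets. Beneath these came Gm15441 (mean of 6 libraries 245 RPKM), Pax6os1 (232), 9330111N05Rik (209.7), the snoRNA AF357359 (200.02), the pseudogenes Gm14405 (174) and Gm15772 (173), and 1700030F04Rik (156). Better-known names lie lower: Malat1 averaged 111 RPKM, Rian 109.9, Airn 102, Neat1 55.6 and Norad 38.3 RPKM. Among the top 10, Pax6os1 and Gm15772 had groups that did not overlap. Such groups, in either direction, were seen in 15.2% of all genes tested and in 21.2% of members.

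**Figure D1:**
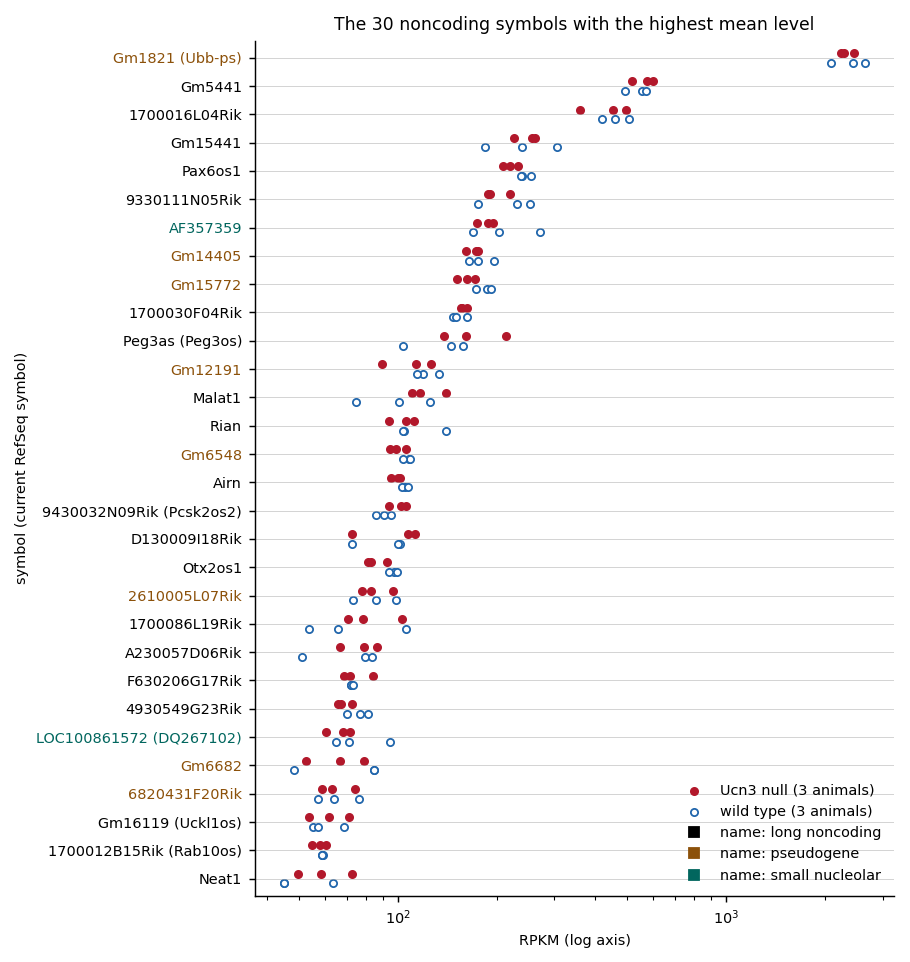
RPKM (horizontal, log axis) of the 30 members with the highest mean, 1 row each; filled points are the 3 Ucn3 null animals and open points below them the 3 wild-type animals, and the colour of a name gives its RefSeq class. Gm1821 stands alone at 2089 RPKM and more, and in most rows the filled and open points intermingle.

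The question put to the members was whether their level differed between null and wild-type islets. No member passed. With limma on log2(RPKM + 1) and adjustment over all 12652 genes tested, 0 of 250 members had an adjusted p under 0.05, beside 2 genes or 0.0158% of all tested. The 2 genes were Ucn3 itself and the pseudogene Marcksl1-ps4. Its mean was 2.07 RPKM, and both its name and its level keep Marcksl1-ps4 out of the members. At an unadjusted limma p under 0.05 there were 37 members (14.8%), against 9.36% of all genes tested. Of these, 33 were lower in null islets (13.2% of members, against 7.9% of all genes) and 4 were higher (1.6%, against 1.46%). Groups that did not overlap were seen in 47 members with lower values in null islets (18.8%, against 13.2% of all genes) and in 6 with higher values (2.4%, against 1.9%). All genes tested include lower levels than the members do. Of the 7393 tested genes of at least 5 RPKM, 823 had an unadjusted limma p under 0.05. At that level, 1174 genes had lower groups without overlap and 102 had higher ones. The median difference of the members, Ucn3 null minus wild type, was −0.07 log2, against −0.03 over all genes tested and −0.04 over tested genes of at least 5 RPKM. These shares depend on how libraries are scaled. With median-of-ratios scaling, 23 members were lower and 11 higher at the unadjusted threshold (9.2% and 4.4%, against 4.61% and 4.47% of all genes). With totals equalised after removing the acinar markers, 16 were lower and 11 higher (6.4% and 4.4%, against 3.22% and 3.32% of all genes), and the median member difference was −0.00862. Acinar marker sums move with genotype, and their part in the member differences was not tested beyond these scalings and a fit holding the acinar marker mean as a second term, which gave 6 members lower and 2 higher (2.4% and 0.8%, against 2.66% and 1.05% of all genes).

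The classes differed in their medians. Long noncoding members had a median difference of −0.05, pseudogenes −0.10, members that RefSeq now calls protein coding −0.19 and the snoRNAs −0.19. The long noncoding class leans either way with scaling, since its median was −0.00982 under median-of-ratios scaling and 0.0104 with acinar-free totals. Members also varied somewhat more between animals of 1 genotype than genes at large: the median SD on the log2 scale was 0.116 in null and 0.126 in wild-type islets, against 0.0985 in null and 0.103 in wild-type islets over all tested genes.

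**Figure D2:**
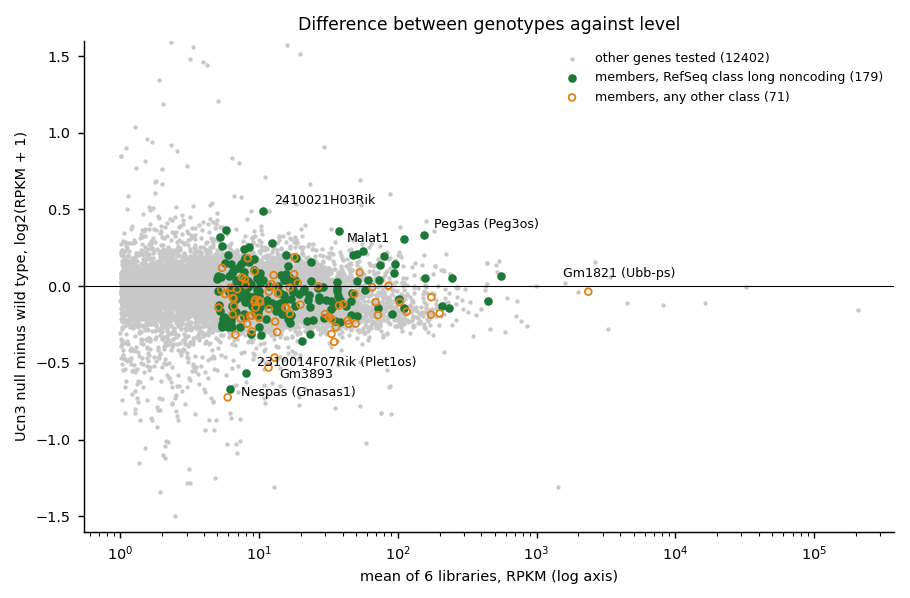
Difference of Ucn3 null from wild-type islets in log2(RPKM + 1) (vertical) against the mean RPKM of 6 libraries (horizontal, log axis) for 12402 other tested genes in gray, 179 long noncoding members in green and 71 members of any other class in orange. Members lie within the cloud of other genes; 54 genes beyond 1.6 in either direction, none of them a member, are not drawn.

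The member with the smallest p was Nespas, now Gnasas1, the antisense transcript of the imprinted Gnas locus. Nespas is transcribed from the paternal allele against the direction of the Nesp transcript, which it silences in cis. It had 3.59, 4.64 and 5.50 RPKM in null islets, against 6.57, 8.23 and 8.68 RPKM in wild-type islets, so every null value lay below every wild-type value. The means were 4.58 ± 0.958 RPKM in null islets and 7.83 ± 1.11 RPKM in wild-type islets (SD, n = 3 each), a ratio of 0.585. On the log2 scale the difference was −0.67 (SE 0.14, limma adjusted p = 0.486). Gnas on the opposite strand, which encodes the stimulatory G protein alpha subunit, had 375, 424 and 458 RPKM in null islets and 423, 406 and 446 RPKM in wild-type islets, with overlapping ranges. Only 4.94% of the Nespas transcript lies in Gnas exons in the GENCODE M21 annotation. Among all tested genes, the pattern nearest to that of Nespas over the 6 libraries was that of Rbp4, one of the 3 delta cell markers, by the range of the log2 ratio (0.301). As nearest matches go this was a loose one. Of the members with a GENCODE transcript, only 4930481A15Rik (0.34) and AF357425 (0.634) had a wider range to their nearest gene. Rbp4 had 34.6, 38.8 and 43.6 RPKM in null islets, against 61.6, 64.5 and 76.6 RPKM in wild-type islets. Sst, the somatostatin gene of delta cells, had 643, 816 and 1035 RPKM in null islets, against 1676, 2117 and 2320 RPKM in wild-type islets. The part of delta cell content in the Nespas values was not tested.

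The other members with the smallest p had null means of 0.773 to 0.837 times the wild-type mean, with 1 exception that was higher. The pseudogene E030024N20Rik had 5.99, 5.50 and 6.19 RPKM in null islets, against 7.24, 8.22 and 7.29 RPKM in wild-type islets. Gm15421, another pseudogene, had 29.4, 28.1 and 33.5 RPKM in null islets and 37.3, 41.4 and 38.9 RPKM in wild-type islets, a difference of −0.36 (SE 0.09). In neither did the groups overlap. AV051173 had 5.46, 5.06 and 5.34 RPKM in null islets, against 6.50, 6.92 and 6.28 RPKM in wild-type islets. 1110020A21Rik, antisense to the phosphatase gene Ppm1b, had 4.83, 4.86 and 4.63 RPKM in null islets, against 5.53, 6.19 and 6.15 RPKM in wild-type islets. Its neighbour Ppm1b, at a mean of 71.8 RPKM, differed by 0.09 with overlapping groups. AA465934 had 16.1, 16.99 and 20.5 RPKM in null islets, against 21.2, 23.8 and 24.3 RPKM in wild-type islets. 3110056K07Rik, antisense to the proteasome subunit gene Psma3, had 15.5, 14.6 and 15.7 RPKM in null islets, against 18.9, 17.002 and 18.8 RPKM in wild-type islets. Psma3 itself was at −0.15 with groups that did not overlap either. Gm20300 had 5.73, 5.61 and 5.75 RPKM in null islets, against 6.33, 6.90 and 7.32 RPKM in wild-type islets. The limma adjusted p was 0.486 for each of these members, so none passed the test. With the acinar term the differences of E030024N20Rik, Gm15421 and AA465934 were −0.204, −0.215 and −0.163, and that of Nespas −0.371.

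Plet1os showed the next largest gap without overlap. 2310014F07Rik, as the table calls it, had 6.75, 5.54 and 6.17 RPKM in null islets, against 13.5, 9.12 and 7.003 RPKM in wild-type islets. The difference was −0.56 (SE 0.20, limma adjusted p = 0.486), and it was −0.335 without the wild-type animal at 13.5 RPKM. The coding gene it overlaps with 23.3% of its length, 1600029D21Rik, differed by −0.55 with overlapping groups and had the nearest pattern of all tested genes (range of the log2 ratio 0.150). Gm16062, opposite the signalosome subunit gene Cops3, had 7.66, 7.43 and 7.92 RPKM in null islets, against 8.13, 11.1 and 10.3 RPKM in wild-type islets. Its difference was −0.31, and −0.092 with the acinar term.

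Higher values in null islets without overlap were fewer and smaller. 2410021H03Rik, antisense within the cytoskeletal linker gene Epb4.1l3, led with 11.3, 13.9 and 12.6 RPKM in null islets, against 10.5, 6.83 and 8.97 RPKM in wild-type islets. The difference was 0.49 (SE 0.14, limma adjusted p = 0.486), and Epb4.1l3 differed by 0.18 in the same direction, also without overlap. The member's difference was 0.234 with the acinar term. E230016M11Rik, opposite the stress gene Gadd45a, had 6.21, 6.47 and 5.29 RPKM in null islets, against 5.27, 4.12 and 5.12 RPKM in wild-type islets. 1700042O10Rik lies opposite Ddc, the aromatic amino acid decarboxylase gene, and had 61.5, 52.4 and 49.7 RPKM in null islets, against 43.1, 49.1 and 48.6 RPKM in wild-type islets. Ddc differed by 0.13 with overlapping groups. The remaining 3 were Gm15350 (0.20), 4930455C13Rik (0.15) and 4930413G21Rik (0.14), with means of 5.70 to 6.24 RPKM. Single libraries weighed on several of these 6: E230016M11Rik was at 0.171 and Gm15350 at 0.129 without wild-type replicate 2, 1700042O10Rik at 0.121 without null replicate 1, and 4930413G21Rik at 0.09 without null replicate 2 and 0.094 without wild-type replicate 3. With the acinar term E230016M11Rik was at 0.025, Gm15350 at 0.091 and 4930455C13Rik at 0.093.

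**Figure D3:**
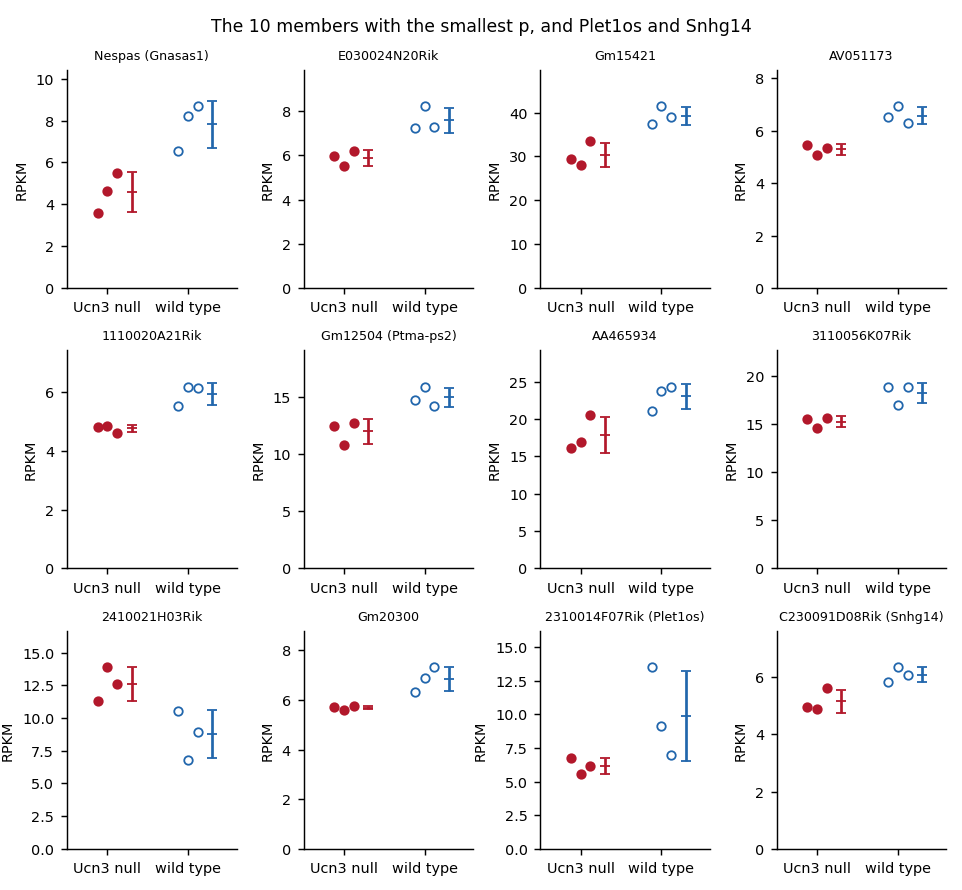
RPKM (vertical, from 0) of the 10 members with the smallest limma p, and of Plet1os and Snhg14, in 3 Ucn3 null animals (filled, left) and 3 wild-type animals (open, right); the bar beside each group is its mean ± SD. In 11 of 12 panels all null points lie below all wild-type points, and in 2410021H03Rik they lie above.

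Among RNAs of nuclear architecture and gene silencing, 6 of 15 listed names were members, Nespas among them, and none passed the test. Malat1, a resident of nuclear speckles, had 110.1, 116 and 140.1 RPKM in null islets, against 125, 74.5 and 101 RPKM in wild-type islets. Neat1, the scaffold of paraspeckles, had 49.6, 58.5 and 72.4 RPKM in null islets, against 44.9, 45.1 and 63.3 RPKM in wild-type islets. Firre, which anchors parts of the X chromosome, stood at 49.1, 46.9 and 57.0 RPKM in null islets, against 48.5, 36.0 and 49.1 RPKM in wild-type islets. All 3 had higher means in null islets, by 0.31, 0.23 and 0.20 on the log2 scale, with overlapping ranges and limma adjusted p of 0.648, 0.721 and 0.690. The lowest Malat1 and Firre values were both in the same wild-type library, which also had the lowest acinar marker sum. With the acinar term the Malat1 difference was 0.0452, that of Neat1 0.381 and that of Firre 0.0488. Ftx, a neighbour and activator of Xist, differed by 0.03, and by −0.182 with the acinar term. Airn, which silences Igf2r in cis on the paternal allele, had 101, 95.6 and 100.2 RPKM in null islets, against 105, 103 and 108 RPKM in wild-type islets. The Airn groups did not overlap, yet the difference was only −0.09 (SE 0.07, limma adjusted p = 0.760). Igf2r, the gene it silences, averaged 6.80 RPKM over the 6 libraries and differed by 0.07. Of 13 tested paraspeckle proteins, 9 were below 0 (69.2%, against 61.7% of all genes tested) and 4 had lower groups without overlap, against 13.2% of all genes, and none passed; Nono was 30.3 ± 0.612 RPKM in null and 34.4 ± 0.607 RPKM in wild-type islets (SD, n = 3 each; limma adjusted p = 0.486). Hnrnpk and Tardbp, the next by p, differed by −0.15 and −0.18. The 14 nuclear speckle splicing factors had a median difference of −0.04, with Srsf3 (−0.22), Srsf9 (−0.20) and Srsf1 (−0.16) smallest in p. Both list medians lay above 0 with median-of-ratios scaling (0.0153 and 0.0049) and with acinar-free totals (0.0341 and 0.0254). With the acinar term they were −0.113 and −0.0385, and 12 of 13 paraspeckle proteins were below 0.

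SnoRNA host genes are spliced transcripts whose introns release snoRNAs while the exons are often degraded. Of 27 listed hosts, 11 were members, 10 of them with a difference below 0, beside 61.7% of all genes tested, and their median was −0.13. None passed the test. Gas5 had 14.5, 14.3 and 17.2 RPKM in null islets, against 17.1, 18.6 and 17.6 RPKM in wild-type islets (limma adjusted p = 0.531). Snhg14, the host of the imprinted Snord116 and Snord115 clusters, runs antisense to Ube3a. It was the only host of the 11 with groups that did not overlap, beside 13.2% of all genes tested that were lower without overlap. It had 4.94, 4.90 and 5.63 RPKM in null islets, against 5.83, 6.35 and 6.06 RPKM in wild-type islets. With 48.6% of its row's transcript in Ube3a exons on the opposite strand, and a kit that does not mark strand, reads in that stretch cannot be assigned to either gene. Ube3a averaged 8.35 ± 0.637 RPKM in null and 8.98 ± 0.783 RPKM in wild-type islets (SD, n = 3 each), with overlap. Snhg1 had 31.7, 35.2 and 42.2 RPKM in null islets, against 40.3, 40.1 and 33.2 RPKM in wild-type islets, with wide overlap. The other hosts, Snhg3, Snhg6, Snhg8, Snhg12, Snhg20, Epb41l4aos and Rian, had differences of −0.21 to −0.03, and Snhg15 was at 0.02. The direction rests on the fit. With median-of-ratios scaling 9 of 11 were below 0, with acinar-free totals 8, and with the acinar term 4, when the median was 0.0191.

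Host genes of this kind often begin at a run of pyrimidines, the start also seen in genes for ribosomal proteins. RefSeq's start-site windows (GRCm38.p6) were at hand for 9 of the 11 hosts. A run of at least 6 bases that are C or T, on the transcribed strand and beginning within 10 bases of the start, was present in 5 of 10 host windows, and in 23.1% of all 32851 windows. They are shown from 20 bases before to 30 bases from the start on, with the run in capitals:
Gas5, chr1:161035146-161035195, + strand: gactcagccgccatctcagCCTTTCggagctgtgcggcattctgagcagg
Snhg1, chr19:8723467-8723516, + strand: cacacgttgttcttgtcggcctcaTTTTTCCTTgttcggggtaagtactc
Snhg8, chr3:123508307-123508356, − strand: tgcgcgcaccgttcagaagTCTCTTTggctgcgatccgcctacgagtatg
Snhg12, chr4:132308658-132308707, + strand: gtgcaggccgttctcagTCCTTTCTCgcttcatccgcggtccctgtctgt
Rian, chr12:109603925-109603974, + strand: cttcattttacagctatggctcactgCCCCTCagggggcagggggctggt
RefSeq's table gives Gas5 a second window, without such a run. By pattern over the 6 libraries, the gene nearest to Gas5 was the ribosomal protein gene Rpl14, with a range of the log2 ratio of 0.0294. Other hosts did not share this. For Snhg1, Snhg3, Snhg6, Snhg8 and Snhg12 the nearest gene was Rfc4, Aldoc, Tmem194b, Gpx1 and Psmg2. For Snhg14, Snhg15, Snhg20 and Epb41l4aos it was Hmgn2, Tmc6, Psmc3ip and 1700047I17Rik2. None of these is a ribosomal protein gene. A run is only a match of letters, and no reading of start use can be had from RPKM values.

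Proteins of the box C/D and H/ACA particles, which hold mature snoRNAs, gave no call either: 8 of 10 were below 0, beside 61.7% of all genes, with a median of −0.16, and the medians were −0.123, −0.105 and −0.086 under median-of-ratios scaling, acinar-free totals and the acinar term. Nop10 averaged 17.5 ± 0.996 RPKM in null and 22.6 ± 2.70 RPKM in wild-type islets (SD, n = 3 each), with groups that did not overlap. Nop58, a core C/D protein, averaged 12.1 ± 0.292 RPKM in null and 13.8 ± 0.225 RPKM in wild-type islets. Nhp2l1 averaged 22.1 ± 1.16 RPKM in null and 25.3 ± 1.39 RPKM in wild-type islets. The groups of Nop58 and of Nhp2l1 did not overlap either. In all, 4 of the 10 had lower groups without overlap, against 13.2% of all genes tested.

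The 7 members that are snoRNAs themselves come from the imprinted Dlk1-Dio3 region on chromosome 12, where the maternally expressed Rian transcript carries arrays of C/D box snoRNAs in its introns. Sequences of 5 of them were found among the GENCODE M21 transcripts (GRCm38), of 72 or 73 bases. The C box TGATGA and the last D box CTGA, searched on the transcribed strand, are in capitals, and the 2 boxes frame each molecule:
DQ267102, chr12:109656345-109656416, + strand: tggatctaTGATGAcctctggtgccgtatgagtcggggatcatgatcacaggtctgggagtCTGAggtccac
DQ267100, chr12:109649617-109649688, + strand: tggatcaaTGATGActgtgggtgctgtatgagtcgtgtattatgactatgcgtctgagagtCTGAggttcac
AF357355, chr12:109654627-109654698, + strand: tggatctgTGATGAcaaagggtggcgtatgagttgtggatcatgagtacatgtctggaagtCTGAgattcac
DQ267101, chr12:109651424-109651496, + strand: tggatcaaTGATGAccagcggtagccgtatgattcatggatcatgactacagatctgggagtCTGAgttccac
AF357425, chr12:109636012-109636084, + strand: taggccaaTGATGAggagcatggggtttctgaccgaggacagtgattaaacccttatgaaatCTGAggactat
Both boxes in this order were present in 247 of 343 GENCODE snoRNA transcripts of 60 to 90 bases (72%). DQ267100, DQ267101, DQ267102 and AF357355 are copies of a family, 76.4 to 83.6% identical to each other in a global alignment, while AF357425 is 56 to 57.9% identical to them. All 5 have the C box at base 9 and 7 bases after the D box. Whether short reads suit more than a single copy of this family was not tested. The sources used here do not say how the authors counted reads shared between genes.

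RPKM values do not tell reads of a mature snoRNA from reads of a longer transcript that carries it, so the levels below are those of the rows. AF357359 had the highest snoRNA row, with 195, 175 and 188 RPKM in null islets, against 203, 169 and 270.2 RPKM in wild-type islets. Rian had 112, 93.9 and 106 RPKM in null islets, against 104, 103 and 139.7 RPKM in wild-type islets. In both, 1 wild-type animal stood above all the others, and the same animal was highest for DQ267102 (94.9 RPKM), DQ267100 (60.7), AF357355 (54.2) and AF357425 (21.7). DQ267101 had 29.7, 27.4 and 31.3 RPKM in null islets, against 31.2, 40.7 and 39.0 RPKM in wild-type islets, a difference of −0.31 (limma adjusted p = 0.486), and its ranges just overlapped. AF357425 was at −0.47 with an SE of 0.27, and AF357426 at 0.19 with an SE of 0.30, so both were poorly determined. In its lowest library AF357425 had an estimated 26 reads. No snoRNA had groups free of overlap. The gene nearest in pattern to DQ267100 was Mirg, a neighbouring transcript of the same imprinted region (range of the log2 ratio 0.0733). It was Oraov1 for DQ267102, Gt(ROSA)26Sor for AF357355, Wbp5 for DQ267101 and Rpph1 for AF357425, so Mirg was nearest to none of these.

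**Figure D4:**
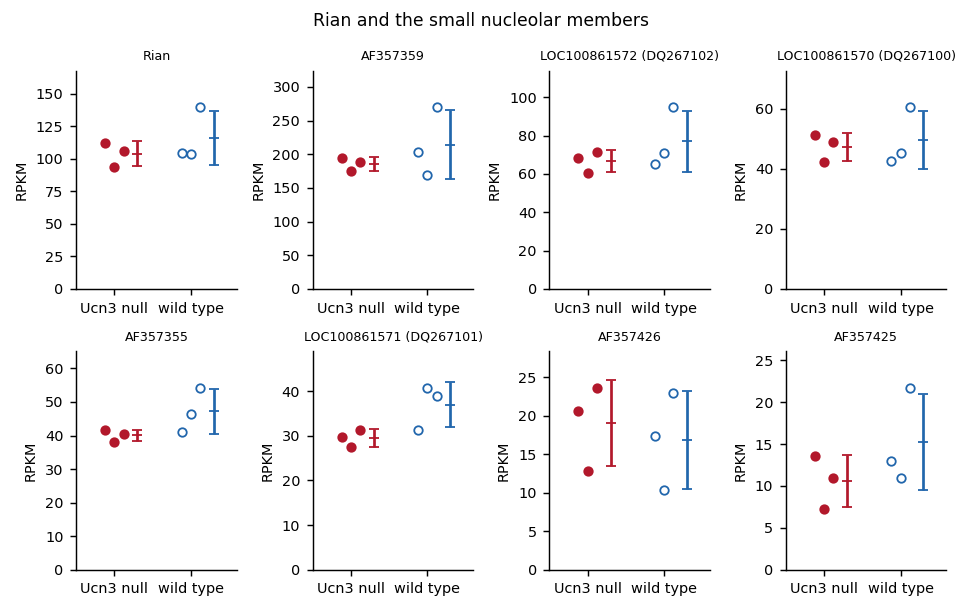
RPKM (vertical, from 0) of Rian and the 7 snoRNA members in 3 Ucn3 null animals (filled, left) and 3 wild-type animals (open, right), with mean ± SD beside each group. The third wild-type animal is the highest point for Rian and for AF357359, DQ267102, DQ267100, AF357355 and AF357425.

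Other imprinted noncoding RNAs went separate ways without passing the test. Peg3as, now Peg3os, had 214, 138 and 162 RPKM in null islets, against 158, 104 and 145 RPKM in wild-type islets, a difference of 0.33 (SE 0.20, limma adjusted p = 0.648). Peg3, the imprinted zinc finger gene of that locus, had 226, 147 and 174 RPKM in null islets, against 167, 98.1 and 146 RPKM in wild-type islets. The highest and the lowest animal were the same for both. With the acinar term the differences of Peg3as and Peg13 turned to −0.0996 and −0.032. Peg13, within Trappc9, had 17.9, 16.97 and 15.8 RPKM in null islets, against 16.6, 14.2 and 15.0 RPKM in wild-type islets, with overlap.

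Many members lie against coding genes. Of 204 members matched to a GENCODE transcript, the span of 120 met a coding gene, on the opposite strand in 105 of them, and 84 met none. Exon bases were shared by 89 members, and 47 had at least 20% of their length in coding exons, 41 of those on the opposite strand. Because the kit does not mark strand, the shared stretches of those members cannot be assigned to either strand. Several face genes of islet identity and secretion. Pax6os1 shares no exon base with Pax6, the islet and eye regulator, and averaged 221 ± 11.8 RPKM in null and 243 ± 9.74 RPKM in wild-type islets (SD, n = 3 each), a difference of −0.14 (limma adjusted p = 0.664) with groups that did not overlap. Pax6 averaged 75.1 ± 8.47 RPKM in null and 74.6 ± 3.38 RPKM in wild-type islets. Plut, opposite Pdx1, the beta cell master regulator, had 23.8, 28.8 and 26.9 RPKM in null islets, against 22.9, 27.3 and 30.2 RPKM in wild-type islets. Its difference was −0.01, beside 0.04 for Pdx1. Nkx2-2as had 13.4, 17.7 and 19.3 RPKM in null islets, against 14.3, 15.7 and 17.9 RPKM in wild-type islets, beside Nkx2-2 at 48.5 ± 9.62 RPKM in null and 47.6 ± 5.61 RPKM in wild-type islets.

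Otx2os1 was unlike these in that its partner was nearly silent. It had 82.96, 80.9 and 92.5 RPKM in null islets, against 97.1, 99.4 and 94.1 RPKM in wild-type islets (difference −0.18, limma adjusted p = 0.539), while Otx2, an eye and forebrain regulator, was listed at 0 in 4 libraries and at 0.00861 RPKM in 1 null and 0.0105 RPKM in 1 wild-type library. 1700016L04Rik was similar, at a mean of 448 RPKM beside Gje1 at 0.0169 RPKM. At the other end, Pcsk2os2 (95.8 RPKM) and Pcsk2os1 (50.5 RPKM) lay below the proinsulin-processing gene Pcsk2, which had 438 ± 25.4 RPKM in null and 434 ± 18.6 RPKM in wild-type islets. Gm5441 runs opposite Ptprn2, a dense-core granule protein gene, and was 4.17 times its mean level. Ptprn2 averaged 139 ± 6.43 RPKM in null and 125 ± 3.35 RPKM in wild-type islets, and its groups did not overlap (difference 0.15, limma adjusted p = 0.591), whereas those of Gm5441 did. Over 119 loci with both levels, the noncoding member was at or above the coding gene in 76. Members had to pass the level limit and the coding genes did not, so the rule itself tilts this count toward members. The loci also include pseudogenes and members on the same strand as the coding gene. The count therefore cannot show whether noncoding transcripts in general exceed the coding genes they meet.

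Some rows repeat the values of another gene. For 8 members the log2 ratio to some other tested gene varied by less than 0.01 over all 6 libraries, a limit chosen after the values were seen. That is 3.2% of members, beside 1.29% of 7389 tested genes of at least 5 RPKM compared in the same way. Among the 8 were 7 pseudogenes: Gm15772 with Rpl26, Gm12191 with Rpl30, Gm5643 with Hnrnpa1, Gm7334 with Btg3, BC002163 with Ndufs5, Gm6644 with Akr1b3 and Gm9855 with Tdg. The eighth was Gm15441, which holds 36.7% of its length in exons of Txnip on the other strand. Txnip, a glucose-induced inhibitor of thioredoxin, had 153, 135 and 156 RPKM in null islets, against 183, 142 and 110.0 RPKM in wild-type islets. Gm15441 had 256, 225 and 262 RPKM in null islets, against 306, 238 and 184 RPKM in wild-type islets, which is 1.67 times Txnip in every library. For these 8, the values in the table are not independent readings of a noncoding transcript.

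Gm15772 shows how near such a copy can be. Its 438 bases differ from the coding part of Rpl26, a large ribosomal subunit protein gene, at 2 positions, an identity of 99.5%. Both are within the 120 bases below (bases 169 to 288 of either, GENCODE M21 transcripts, GRCm38), with the differing base in capitals:
Gm15772, chromosome 5: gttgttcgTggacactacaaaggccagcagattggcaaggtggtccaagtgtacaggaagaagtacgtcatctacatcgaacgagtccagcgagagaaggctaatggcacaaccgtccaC
Rpl26, chromosome 11: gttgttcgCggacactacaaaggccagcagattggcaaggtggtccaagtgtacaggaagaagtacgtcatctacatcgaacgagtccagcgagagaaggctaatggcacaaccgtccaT
Over the 204 members with a GENCODE transcript, 24 shared at least 50% of their 31-base words with transcripts of coding genes (11.8%), counting both strands. They were 14 of 29 pseudogenes, 48.3%, all with the coding gene on the same strand, and 10 of 165 long noncoding members, 6.06%, of which 7 shared with the opposite strand. No shared word was found for 62 long noncoding members. Gm1821 shares 87.4% of its words with Ubb, and its 6 values kept a nearly fixed ratio of 1.19 to those of Ubb (range of the log2 ratio 0.0189). Ptma-ps2, the table's Gm12504, differed by −0.30 (limma adjusted p = 0.486) with 12.5, 10.8 and 12.7 RPKM in null islets, against 14.8, 15.9 and 14.2 RPKM in wild-type islets. Its parent Ptma, the prothymosin gene, differed by −0.25 and was 181, 174 and 184 RPKM in null islets, against 216, 225 and 201 RPKM in wild-type islets. Ptma-ps2 shares 11% of its words with Ptma, and its log2 ratio to Ptma ranged over 0.191. Cox7c-ps1 and Cox7c differed by −0.27 and −0.24, and Morf4l1-ps1 and Morf4l1 by −0.20 and −0.20. Selenok-ps1 and its parent Selk were less alike, at −0.21 and −0.08, with a range of the log2 ratio of 0.508.

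**Figure D5:**
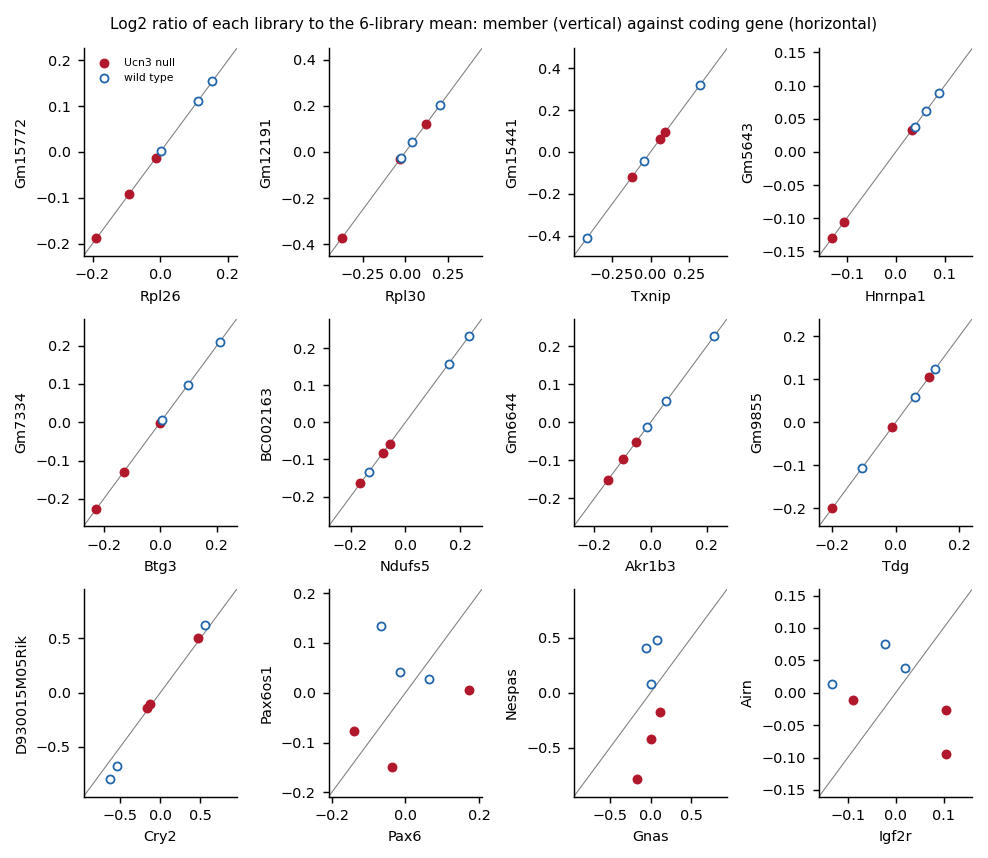
Log2 ratio of each library to the mean of the 6 for a member (vertical) against a coding gene (horizontal), with filled points for 3 Ucn3 null and open points for 3 wild-type animals and a line of equal change. The first 8 pairs lie on the line within 0.01, and the ratio ranges over 0.234 log2 for D930015M05Rik and Cry2, 0.368 for Pax6os1 and Pax6, 1.08 for Nespas and Gnas and 0.346 for Airn and Igf2r.

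A group of 12 members has since been reassigned as protein coding, several for very small proteins. Of these, 11 had a difference below 0 (91.7%, against 61.7% of all genes tested) and 4 had lower groups without overlap (33.3%, against 13.2%), and none passed the test. Mtln, which encodes the mitochondrial micropeptide mitoregulin, had 7.14, 7.78 and 7.33 RPKM in null islets, against 8.64, 9.81 and 8.504 RPKM in wild-type islets (difference −0.24, SE 0.07, limma adjusted p = 0.486). Pigbos1, another mitochondrial microprotein gene, had 8.33, 7.30 and 7.85 RPKM in null islets, against 8.57, 11.3 and 9.75 RPKM in wild-type islets, a difference of −0.29, and of −0.124 with the acinar term. Smim4, a small integral membrane protein gene, had 10.9, 11.7 and 13.1 RPKM in null islets, against 13.1, 14.9 and 14.5 RPKM in wild-type islets, with ranges that just overlapped. Mrln, known for the muscle micropeptide myoregulin, was the highest of the 12, with 42.4, 46.3 and 46.8 RPKM in null islets, against 44.8, 59.7 and 57.7 RPKM in wild-type islets. With median-of-ratios scaling and with acinar-free totals 9 of the 12 were below 0, and with the acinar term 10.

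The 5 members with the widest spread between animals of a genotype are given next. D930015M05Rik, opposite the clock repressor gene Cry2, had 53.1, 34.0 and 34.9 RPKM in null islets, against 57.9, 21.6 and 23.4 RPKM in wild-type islets. Cry2 followed with 33.4, 21.5 and 22.1 RPKM in null islets, against 35.7, 15.7 and 16.7 RPKM in wild-type islets, so 1 animal of each genotype was high for both. Of the member's length, 24.8% lies in Cry2 exons. Gm3893 had 8.09, 6.25 and 12.6 RPKM in null islets, against 24.0, 11.6 and 7.604 RPKM in wild-type islets. 6430706D22Rik, now Hjurp, a centromere chaperone gene, had 8.04, 2.50 and 2.92 RPKM in null islets, against 6.22, 6.25 and 9.68 RPKM in wild-type islets. 4930526L06Rik, opposite the B cell gene Ms4a1, had 2.11, 7.04 and 5.68 RPKM in null islets, against 7.85, 6.07 and 3.45 RPKM in wild-type islets. 9530052E02Rik, opposite Irs2, had 14.1, 11.1 and 14.6 RPKM in null islets, against 17.5, 7.44 and 9.21 RPKM in wild-type islets. All 5 had overlapping groups, and their differences carried SEs of 0.27 to 0.39.

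None of the cytoplasmic and other regulatory names passed the test. Norad, a sponge for Pumilio proteins, had 35.9, 36.7 and 38.7 RPKM in null islets, against 37.2, 40.3 and 41.0 RPKM in wild-type islets. Tug1 had 12.9, 12.8 and 13.6 RPKM in null islets, against 13.8, 14.7 and 14.4 RPKM in wild-type islets, a difference of −0.11 with groups that did not overlap (limma adjusted p = 0.614). Dleu2, host of miR-15a and miR-16-1, had 11.2, 7.70 and 9.01 RPKM in null islets, against 11.7, 8.99 and 10.7 RPKM in wild-type islets. Bc1, a short RNA polymerase III transcript known from neurons, had 37.7, 35.5 and 34.8 RPKM in null islets, against 42.5, 32.7 and 36.1 RPKM in wild-type islets. With the acinar term the difference of Dleu2 was −0.417, against −0.161 without it, and that of Bc1 −0.259, against −0.0345. Genes of RNA decay also gave no call. The median was −0.04 for 15 nonsense-mediated decay factors, with Smg6 at −0.16, Magoh at −0.16 and Rbm8a at −0.11. RNase P and MRP proteins (9 tested) had a median of −0.13, with Rpp21 at −0.22, Rpp30 at −0.15 and Pop5 at −0.20. Of 14 exosome and nuclear decay genes, 13 were below 0, beside 61.7% of all genes, with a median of −0.04, and Exosc8, Exosc3 and Exosc1 were at −0.17, −0.12 and −0.10. That list's median turned to 0.00295 with median-of-ratios scaling and 0.0197 with acinar-free totals, and that of the RNase proteins to 0.0273 with the acinar term.

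At the edge of the rule the members just inside were Gm3219 and Epb41l4aos (5.09 RPKM each), 4930539J05Rik (5.07) and 2210403K04Rik, now Mir22hg (5.002). Just outside were Gm6623 (4.99 RPKM), 5430417L22Rik (4.98), 4921515E04Rik (4.96) and Gm16907 (4.95). Estimated reads in the lowest library were 64 for Epb41l4aos, 98 for 4930539J05Rik and 370 for Mir22hg, and Gm3219 had no estimate. Over all 204 members with an estimate, the median of the lowest library was 650.5 reads. Of these, 1 member, the snoRNA AF357425, fell under 50 estimated reads in some library.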

How the data were processed

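RNA from islets of 3 Ucn3 null and 3 wild-type mice was made into libraries with the TruSeq RNA kit v2, per the labels' protocols; this kit does not mark strand. Levels were deposited as RPKM, computed by the authors for each RefSeq transcript; the submitters' processing notes name STAR, bedtools, DESeq and mm9, without versions or roles. The sources used here do not say how reads shared between genes were counted. Of 28129 rows, 117 had no values and 1 had a text cell.

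For each symbol the transcript row with the highest mean was kept. Symbols averaging at least 1 RPKM (12652, all 250 members among them) were fitted as log2(RPKM + 1) with limma 3.58.1 in R 4.3.3, genotype as the only term, a mean trend and Benjamini-Hochberg adjustment over all of them. Differences are null minus wild type on that scale, which understates the change of low genes, and SE is limma's. The fit was tested on simulated data. The 2 genotypes are separate animals; labels carry no replicate numbers, so nothing was paired. Each library is 1 animal, and with 3 against 3 small differences go unseen.

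Depth came from the steps of low values, since RPKM times length falls on whole reads; the share that came out whole, to 0.1 read, was 75.9 to 78.4%, so reads are estimates and no count test was run. RefSeq records matched 231 members by accession, 12 by synonym and 6 by symbol; GENCODE M21 gave transcripts for 204. Both are GRCm38, the table mm9, so they gave names, lengths, sequences and neighbours, and the table has no coordinates. The nearest pattern is the tested gene of another symbol with the smallest range of the log2 ratio over 6 libraries.

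Named members are the 10 highest, the 10 with the smallest p, up to 8 in each direction without overlap, the 4 on either side of the level limit, the 5 with the largest spread, those in role lists, and neighbouring genes. Mtln, Smim4, Mrln, Plut, Nkx2-2as, Otx2os1 and both Pcsk2 antisense RNAs fall outside this: they were picked once values were known. The members and lists were chosen with earlier results of these data known.

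Alternatives were another pseudocount (0.1), no filter, median-of-ratios scaling, acinar-free totals, no mean trend, every row tested, the acinar mean as a covariate, levels of 10 and 2 RPKM, each library left out, and, chosen after seeing the data, long noncoding members only and members free of coding exons. Figures were drawn with matplotlib 3.10.9.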

Additional observations from a re-analysis of the deposited data

How the results depend on the processing

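The count of members past the adjusted threshold was 0 under every alternative run. The 18 named members with a difference kept its sign in all 13 alternatives over all genes. They had been named for a small p or for groups that did not overlap, and all have such groups. Their sign therefore could not change with 1 library left out, another pseudocount, no filter or no mean trend. The scalings and the acinar covariate could have turned it, and the covariate did turn Peg3as and Peg13, which were named by role. Size was not kept: with the acinar covariate E230016M11Rik was at 0.025, against 0.262, and Gm16062 at −0.092, against −0.31. The count over all genes was 2; it was 4 without the filter on low values, 1 with the acinar mean as a covariate, and 1 to 5 with 1 library left out (5 without null replicate 1, 1 without null replicate 2). The median member difference was −0.07; it moved to −0.00862 with acinar-free totals, was −0.028 with median-of-ratios scaling, −0.045 with the acinar covariate, and −0.109 to −0.0576 with 1 library left out. It was −0.0885 over the 143 members of at least 10 RPKM, −0.0471 over the 440 of at least 2 RPKM, −0.0533 over long noncoding members and −0.0758 over 115 members with no base in a coding exon. The Nespas difference ran from −0.787 to −0.536 with 1 library left out and was −0.371 with the acinar covariate. The cause of these shifts was not tested. No paired analysis was possible because the labels give the animals no shared replicate numbers. RPKM values without counts, and shared reads between copies and strands, limit what each row can say of its own transcript.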
